A study of Mus musculus with 6 samples.

Results

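The genes described here are 10 genes of the Notch pathway, the 4 receptor genes Notch1, Notch2, Notch3 and Notch4, the 4 ligand genes Dll1, Dll3, Jag1 and Jag2 and the 2 target genes Hes1 and Hey1. They were chosen by gene name from the 78298 genes of a deposited expression table, and each name matched 1 row. Poly(A) RNA had been sequenced from mouse epiblast-like cells (EpiLCs), cells in a state resembling the epiblast after implantation, and from mouse embryonic stem cells (ESCs), which stand for the naive epiblast in culture. Each group had 3 libraries. All 6 came from the line that the labels name BVSC clone H18, with the genotype WT in both groups, so the values describe 1 clone. No treatment, culture time or strain is stated in the labels used here, and the p-values measure the spread between libraries that the labels call biological replicates.

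Notch receptors are membrane proteins that a ligand on a neighbouring cell activates. Ligand binding and pulling lead to cuts by an ADAM protease and by gamma-secretase, and the freed intracellular domain enters the nucleus, joins the DNA-binding protein RBPJ and a Mastermind coactivator, and turns on target genes such as those of the HES and HEY repressors. Jagged proteins and DLL1 activate receptors on neighbouring cells, whereas DLL3 is known as a ligand that does not activate them. In mouse ESCs Notch signalling is not needed for self-renewal and is known for promoting neural fate during differentiation, and in the embryo it controls somite segmentation and neurogenesis.

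Values are TPM, shares of a library's transcripts scaled to a sum of 1000000, which correct for transcript length, so levels can be compared between genes. The depth behind a value is unknown, and the number of genes at 1 TPM or more was 13610 to 13983 per library. Fold changes and tests are from limma on log2(TPM + 1), EpiLC minus ESC, over the 14036 genes with a mean of at least 1 TPM, with p-values adjusted by the Benjamini-Hochberg method over all of them. The scale understates changes of weakly expressed genes. The identity of the cells was checked first. All 6 naive markers (Klf4, Esrrb, Tfcp2l1, Zfp42, Prdm14 and Nanog) were lower in EpiLCs, with a summed level of 234 to 265 TPM in EpiLCs and 1093 to 1183 TPM in ESCs. All 4 formative markers (Fgf5, Otx2, Pou3f1 and Dnmt3b) were higher, with a summed level of 439 to 633 TPM in EpiLCs and 13.9 to 15.8 TPM in ESCs. Most of that sum was Dnmt3b, at 367 to 515 TPM in EpiLCs and 10.9 to 12.4 TPM in ESCs. The EpiLC libraries were uneven in these markers, and all 4 were highest in EpiLC replicate 3. In EpiLC replicates 1, 2 and 3, Fgf5 had 5.74, 3.61 and 14.8 TPM and Otx2 38.1, 22.9 and 59.5 TPM.

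Of the 10 Notch genes, all passed the filter on low values, 4 were higher in EpiLCs (Notch2, Notch3, Dll3 and Jag2), 3 were lower (Notch1, Notch4 and Hes1) and 3 did not pass the test (Dll1, Jag1 and Hey1). Over all tested genes 66.9% were called, 36.1% as higher and 30.9% as lower, so the share of Notch genes called was near that of all genes. Their median log2 fold change was -0.09, against 0.04 over all tested genes. The values of the groups did not overlap for 8 of the 10, against 71.5% of all tested genes. Notch4 and Dll3 passed the filter only through the group in which they were high. The same holds, among other genes named here, for Dner, Aph1c, Gata2, Prdm14 and Gata4 (high in ESCs) and for Myc, Fgf5, Pou3f1, Pax6, Nsmf and Ms4a4d (high in EpiLCs), so that passing the filter already required a difference.

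The promoters of the 6 receptor and ligand genes that were called are shown for their sequence context. Each window runs from 250 bases before to 50 bases after the start of the gene in RefSeq (GRCm38.p6, a different build from the GRCm39 build of the expression table), is 300 bases long and is read 5′ to 3′ on the gene's strand. The table of windows held 8 of the 10 genes, with 2 windows for Dll1, and none for Hes1 and Hey1. Capitals mark GC boxes (GGGCGG or its complement on the other strand, overlapping matches counted separately), the motif bound by SP and KLF factors. The windows are Notch3 (chr17:32166841-32167140, minus strand), Notch2 (chr3:98013288-98013587, plus strand), Jag2 (chr12:112929446-112929745, minus strand) and Dll3 (chr7:28301736-28302035, minus strand), which were higher in EpiLCs, and Notch1 (chr2:26503773-26504072, minus strand) and Notch4 (chr17:34564045-34564344, plus strand), which were lower.
Notch3: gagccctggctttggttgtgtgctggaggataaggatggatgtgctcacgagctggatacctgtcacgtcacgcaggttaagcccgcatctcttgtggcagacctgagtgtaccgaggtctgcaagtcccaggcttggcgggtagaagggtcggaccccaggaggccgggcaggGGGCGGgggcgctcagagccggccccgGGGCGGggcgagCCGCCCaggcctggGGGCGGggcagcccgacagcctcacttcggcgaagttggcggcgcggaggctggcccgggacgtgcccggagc
Notch2: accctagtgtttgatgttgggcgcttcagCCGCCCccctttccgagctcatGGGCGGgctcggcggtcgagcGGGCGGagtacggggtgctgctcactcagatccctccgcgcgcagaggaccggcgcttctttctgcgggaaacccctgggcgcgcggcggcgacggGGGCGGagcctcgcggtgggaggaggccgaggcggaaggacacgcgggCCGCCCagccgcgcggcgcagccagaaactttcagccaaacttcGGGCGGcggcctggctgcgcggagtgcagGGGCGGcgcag
Jag2: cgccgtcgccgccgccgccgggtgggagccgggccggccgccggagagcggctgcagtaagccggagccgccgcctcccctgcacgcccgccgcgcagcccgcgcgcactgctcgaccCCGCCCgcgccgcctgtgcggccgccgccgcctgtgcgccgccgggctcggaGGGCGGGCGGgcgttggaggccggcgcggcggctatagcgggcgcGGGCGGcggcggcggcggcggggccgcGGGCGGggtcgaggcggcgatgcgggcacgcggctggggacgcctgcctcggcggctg
Dll3: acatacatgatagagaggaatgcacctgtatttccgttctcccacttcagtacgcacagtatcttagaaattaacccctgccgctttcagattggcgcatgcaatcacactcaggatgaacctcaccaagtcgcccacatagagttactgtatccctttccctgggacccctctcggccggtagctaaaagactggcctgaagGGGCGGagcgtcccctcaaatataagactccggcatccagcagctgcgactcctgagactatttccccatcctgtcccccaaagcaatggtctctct
Notch1: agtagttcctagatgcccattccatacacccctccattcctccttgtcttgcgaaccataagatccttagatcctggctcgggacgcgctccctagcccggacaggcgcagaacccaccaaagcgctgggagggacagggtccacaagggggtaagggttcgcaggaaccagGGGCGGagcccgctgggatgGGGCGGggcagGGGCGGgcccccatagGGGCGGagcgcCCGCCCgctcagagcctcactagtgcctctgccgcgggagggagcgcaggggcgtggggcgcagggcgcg
Notch4: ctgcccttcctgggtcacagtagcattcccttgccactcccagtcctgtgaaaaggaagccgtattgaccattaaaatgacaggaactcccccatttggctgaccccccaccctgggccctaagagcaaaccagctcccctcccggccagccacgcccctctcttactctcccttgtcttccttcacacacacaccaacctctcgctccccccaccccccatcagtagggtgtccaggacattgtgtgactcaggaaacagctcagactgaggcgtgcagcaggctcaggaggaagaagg
Notch2 held 7 GC boxes, Jag2 and Notch1 5 each, Notch3 4 and Dll3 1, while the windows of Notch4, Dll1 and Jag1 held none. At least 1 GC box was present in 35.7% of the 32851 promoter windows searched, called all windows here, and at least 3 in 10.7%. A part of the windows was not searched and enters no share. Boxes were found in all 4 of the genes shown that were higher in EpiLCs and, of the 2 that were lower, in Notch1 but not in Notch4. The core RBPJ motif (TGGGAA, both strands) was in none of the 9 Notch gene windows and in 25.6% of all windows, and the HES-binding N box (CACNAG, both strands) was in those of Notch1, Notch2, Notch3 and 1 of the windows of Dll1, and in 42.5% of all. No matches of different motifs overlapped in the Notch gene windows. The windows of Jag2 and Notch2 were the richest in G and C of the 9, at 86.0% and 73.0%, and that of Dll3 the poorest at 52.0%, against a median of 52.7% over all windows. A match or its lack describes these letters only.

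The receptors differed most in Notch3 (ENSMUSG00000038146), the receptor best known from vascular smooth muscle. It had 44.8, 48.1 and 36.6 TPM in EpiLCs, against 7.91, 7.40 and 7.43 TPM in ESCs. Every EpiLC library was far above every ESC library, although the lowest EpiLC value, in replicate 3, was well under the other two. The means were 43.2 ± 5.90 TPM in EpiLCs and 7.58 ± 0.286 TPM in ESCs (SD, n = 3 each), a 5.69-fold ratio (limma log2 fold change 2.36 ± 0.11 SE, adjusted p = 1.3e-06). By mean level Notch3 stood at percentile 75.6 of the tested genes in EpiLCs and at percentile 37.1 in ESCs.

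Notch2 (ENSMUSG00000027878), a broadly expressed receptor, also rose. Its level was 9.40, 10.1 and 9.40 TPM in EpiLCs, against 4.55, 4.86 and 4.43 TPM in ESCs. The libraries of each group lay close together and far from those of the other. The means were 9.62 ± 0.374 TPM in EpiLCs and 4.61 ± 0.220 TPM in ESCs (SD, n = 3 each; limma log2 fold change 0.92 ± 0.09 SE, adjusted p = 5.1e-05).

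Notch1 (ENSMUSG00000026923), the receptor required for somite segmentation in the mouse embryo, fell by a smaller amount. It had 7.52, 7.52 and 6.52 TPM in EpiLCs, against 10.1, 9.70 and 10.1 TPM in ESCs. The highest EpiLC value remained below the lowest ESC value. The limma log2 fold change was -0.43 ± 0.09 SE (adjusted p = 0.0034), from means of 7.19 ± 0.577 TPM in EpiLCs and 9.99 ± 0.254 TPM in ESCs (SD, n = 3 each).

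Notch4 (ENSMUSG00000015468), known mainly from endothelium, was the weakest receptor in both states. It had 0.746, 0.336 and 0.435 TPM in EpiLCs, against 2.03, 0.886 and 2.24 TPM in ESCs. The groups did not overlap, but ESC replicate 2 was close to the highest EpiLC library. The limma log2 fold change was -0.82 ± 0.23 SE (adjusted p = 0.013), and the call was lost when genes of all levels were tested (adjusted p = 0.051, where the 14 alternatives gave 0.0015 to 0.051). Among 5 endothelial markers, Cdh5 and Kdr were at 0.0726 TPM or less in all libraries and Flt1 at 0.570 TPM or less, with Flt1 and Cdh5 higher and Kdr lower in every EpiLC library than in any ESC library. Tek had means of 1.17 TPM in EpiLCs and 1.08 TPM in ESCs without passing the test, whereas Pecam1, which ESCs are known to express, fell to 35.6 to 42.7 TPM in EpiLCs, against 123 to 147 TPM in ESCs. The summed level of the 5, nearly all of it Pecam1, was 37.3 to 44.4 TPM in EpiLCs and 125 to 148 TPM in ESCs. Their part in the Notch4 values was not tested.

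**Figure D1:**
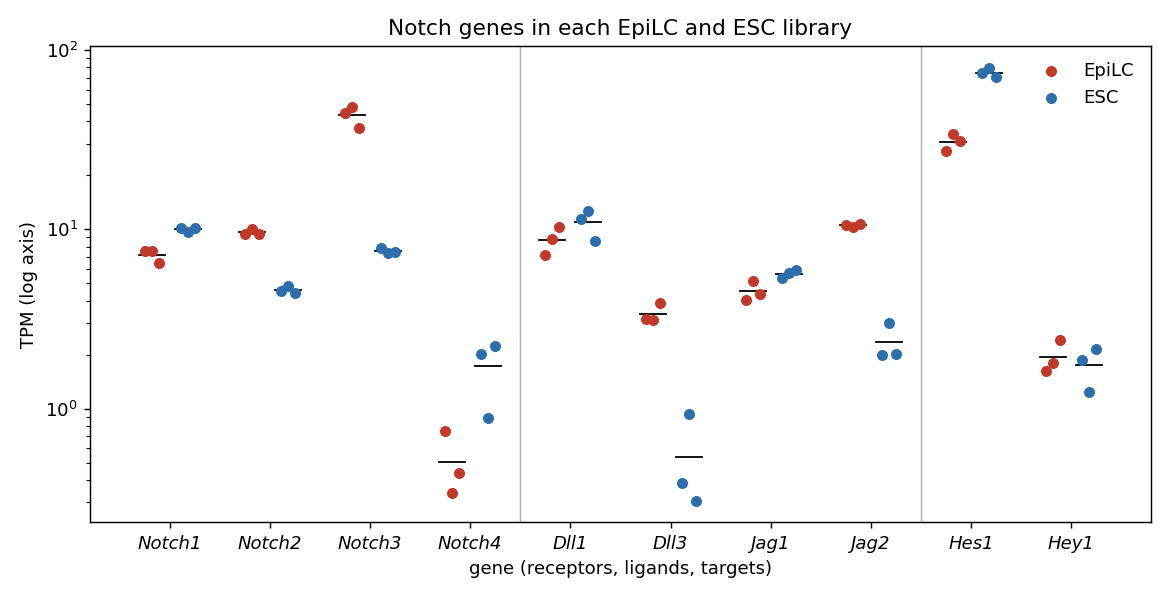
TPM of the 10 Notch genes on a log axis, with 1 point per library, EpiLC libraries left of ESC libraries and a black line at each group's mean of 3. Notch3 sits between 36.6 and 48.1 TPM in EpiLCs and between 7.40 and 7.91 TPM in ESCs, Hes1 lies lower in EpiLCs, and the values of Dll1 and Hey1 overlap between groups.

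The order of the receptors by level differed between the states. In EpiLCs the order was Notch3, Notch2, Notch1 and Notch4, and in ESCs it was Notch1, Notch3, Notch2 and Notch4. In neither group did the values of neighbours in the order overlap. The summed TPM of the 4 receptors was 60.5 ± 6.72 in EpiLCs and 23.9 ± 0.939 in ESCs (SD, n = 3 each), given as a description with no test. Notch3 made up 69.1% to 72.9% of that sum in the EpiLC libraries and 30.7% to 32.4% in the ESC libraries. Notch1 made up 11.4% to 12.3% of it in EpiLCs and 41.1% to 42.5% in ESCs. The TPM of Notch3 over that of Notch1 was 5.61 to 6.39 in EpiLC libraries and 0.733 to 0.781 in ESC libraries.

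Among the ligands, Jag2 (ENSMUSG00000002799), a Jagged ligand of epithelia and limb bud ectoderm, rose. It had 10.6, 10.3 and 10.8 TPM in EpiLCs, against 2.00, 3.02 and 2.00 TPM in ESCs. The EpiLC libraries were nearly equal, and ESC replicate 2 was above the other ESC libraries. The means were 10.6 ± 0.220 TPM in EpiLCs and 2.34 ± 0.589 TPM in ESCs (SD, n = 3 each), a 4.51-fold ratio (limma log2 fold change 1.80 ± 0.13 SE, adjusted p = 1.5e-05).

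Dll3 (ENSMUSG00000003436), the divergent Delta ligand of the presomitic mesoderm, was close to absent in ESCs. It had 3.14, 3.12 and 3.86 TPM in EpiLCs, against 0.382, 0.929 and 0.307 TPM in ESCs. Every ESC library was below 1 TPM and every EpiLC library above 3 TPM. The limma log2 fold change was 1.52 ± 0.18 SE (adjusted p = 1.5e-04), and the ratio of the group means was 6.25-fold. Its log2 fold change was below that of Jag2 with a pseudocount of 1 and above it with one of 0.1 (2.56 for Dll3 and 2.15 for Jag2).

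Dll1 (ENSMUSG00000014773), the Delta ligand of somites and neural progenitors, had 7.17, 8.79 and 10.3 TPM in EpiLCs, against 11.4, 12.7 and 8.60 TPM in ESCs. Its groups overlapped, since ESC replicate 3 was below 2 of the EpiLC libraries, and it missed the threshold (limma adjusted p = 0.17), with a log2 fold change of -0.28 and a 95% interval of -0.67 to 0.10. It passed as lower when ESC replicate 3 was left out (adjusted p = 0.045 at a log2 fold change of -0.43). The log2 fold change was -0.16 without EpiLC replicate 1 and -0.18 without ESC replicate 2, and the 15 alternatives gave adjusted p of 0.045 to 0.44.

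Jag1 (ENSMUSG00000027276), a widely expressed Jagged ligand, had 4.05, 5.12 and 4.37 TPM in EpiLCs, against 5.35, 5.70 and 5.94 TPM in ESCs. The groups did not overlap but lay close together. It missed the threshold at a limma adjusted p of 0.054, with a log2 fold change of -0.28 and a 95% interval of -0.53 to -0.02. It passed as lower when EpiLC replicate 2 was left out (adjusted p = 0.027 at a log2 fold change of -0.35), and with median-of-ratios scaling, quantile normalization or no variance trend (adjusted p = 0.030, 0.035 and 0.032). The 15 alternatives gave adjusted p of 0.027 to 0.16.

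The order of the ligands differed too. In EpiLCs Jag2 and Dll1 had the highest levels, with overlapping values, followed by Jag1 and Dll3, and in ESCs the order was Dll1, Jag1, Jag2 and Dll3 with no overlap between neighbours. The summed TPM of the 4 ligands was 27.2 ± 2.20 in EpiLCs and 19.5 ± 2.76 in ESCs (SD, n = 3 each). Jag2 made up 36.7% to 42.4% of that sum in EpiLCs and 10.4% to 13.5% in ESCs. Dll1 made up 28.8% to 35.3% of it in EpiLCs and 51.0% to 59.7% in ESCs. Jag2 was 2.01 to 2.61 times the level of Jag1 in EpiLC libraries and 0.337 to 0.529 times in ESC libraries.

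**Figure D2:**
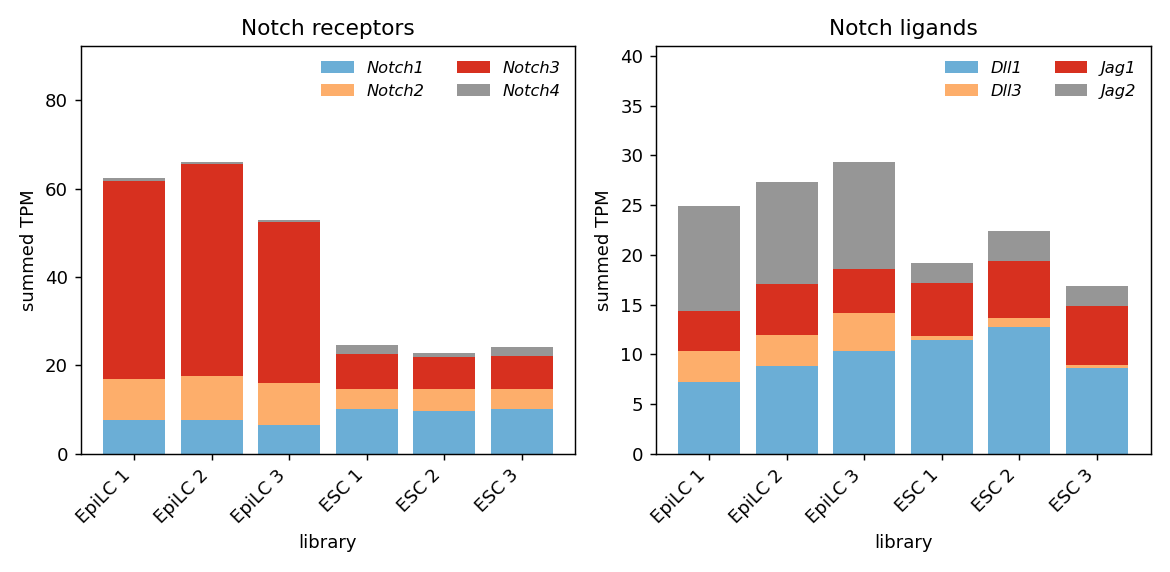
Stacked bars of TPM in each library, EpiLC left of ESC, for the 4 receptor genes (left panel) and the 4 ligand genes (right panel). Notch3 takes up 69.1% to 72.9% of the receptor bar in EpiLCs and 30.7% to 32.4% in ESCs, and Jag2 takes up 36.7% to 42.4% of the ligand bar in EpiLCs and 10.4% to 13.5% in ESCs.

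The target gene Hes1 (ENSMUSG00000022528), which encodes a basic helix-loop-helix repressor, moved opposite to Notch3. It had 27.5, 34.1 and 31.1 TPM in EpiLCs, against 74.1, 79.8 and 70.5 TPM in ESCs. The highest EpiLC library was under every ESC library by a wide margin. The means were 30.9 ± 3.30 TPM in EpiLCs and 74.8 ± 4.69 TPM in ESCs (SD, n = 3 each; limma log2 fold change -1.25 ± 0.09 SE, adjusted p = 1.0e-05). Hes1 was the most abundant of the 10 genes in ESCs and came after Notch3 in EpiLCs, with no overlap with the next gene in either. Hes1 in ESCs is also known to respond to signals other than Notch, among them BMP and LIF.

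Hey1 (ENSMUSG00000040289), a related repressor gene, had 1.62, 1.80 and 2.41 TPM in EpiLCs, against 1.86, 1.24 and 2.14 TPM in ESCs. The groups overlapped and it missed the threshold (limma adjusted p = 0.62), with a log2 fold change of 0.10 and a 95% interval of -0.30 to 0.50. The level of Hes1 was 12.9 to 18.9 times that of Hey1 in EpiLC libraries and 32.9 to 64.2 times in ESC libraries.

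Other HES and HEY genes and genes reported as Notch targets moved both ways. Of 12, 6 passed the filter, 3 were higher and 1 was lower (66.7% of those tested were called, against 66.9% of all tested genes). Hes6, whose product is known in the mouse to counteract HES1, rose to 75.4 ± 3.05 TPM in EpiLCs, against 9.51 ± 2.40 TPM in ESCs (SD, n = 3 each; limma log2 fold change 2.88 ± 0.14 SE, adjusted p = 2.1e-06). The TPM of Hes6 over that of Hes1 was 2.16 to 2.87 in EpiLC libraries and 0.101 to 0.166 in ESC libraries. The cyclin gene Ccnd1 rose by 1.07 on the log2 scale. Myc and Gata2, which many other pathways control as well, had log2 fold changes of 5.14 and -5.91. Nrarp, a feedback inhibitor that is among the most direct Notch targets, had 2.95 to 3.92 TPM in EpiLCs and 3.46 to 3.71 TPM in ESCs. It did not pass the test, at a log2 fold change of -0.05 (95% interval -0.33 to 0.22). Hes2, Hes3, Hes5, Hes7, Hey2 and Heyl stayed below 1 TPM in all libraries and were not tested. Of these, Hes2 and Heyl were higher in every EpiLC library than in any ESC library, and the others overlapped between groups.

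Of 6 further ligands, which apart from Dll4 are non-canonical, 2 were tested, and they moved in opposite directions. Dlk1, an imprinted Delta-like gene, rose to 12.2, 14.1 and 14.0 TPM in EpiLCs, against 1.30, 0.978 and 0.782 TPM in ESCs (limma log2 fold change 2.84 ± 0.13 SE, adjusted p = 1.3e-06). Dner, a neuronal membrane protein gene, fell to 0.190, 0.131 and 0.256 TPM in EpiLCs, against 10.1, 7.52 and 9.51 TPM in ESCs (limma log2 fold change -3.07 ± 0.14 SE, adjusted p = 1.2e-06). Dll4, the endothelial Delta ligand, was at most 0.439 TPM in any library, and its values and those of Dlk2 overlapped between groups. The other untested ligands, Ccn3 and Cntn1, were higher in every EpiLC library than in any ESC library. Ccn3 had means of 0.709 TPM in EpiLCs and 0.0240 TPM in ESCs, and Cntn1 0.0736 TPM in EpiLCs and 0.0158 TPM in ESCs.

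The genes that process the receptors were counted in 2 lists, without a test of either list against all genes, of which 36.1% were higher and 30.9% lower. Of 10 tested genes for receptor glycosylation, 5 fell, none rose and 5 did not pass the test (5 of 10 called, against 66.9% of all tested genes, with a median log2 fold change of -0.23), led by Eogt and Poglut1 with log2 fold changes of -0.92 and -0.48, which add GlcNAc and glucose to the receptors' EGF repeats. The Fringe genes, which alter the response to Jagged and Delta ligands, differed among themselves, Rfng falling by 0.37 on the log2 scale while Mfng and Lfng had log2 fold changes of 0.11 and 0.44 without passing the test. Lfng, at an unadjusted limma p of 0.041 the 1 gene of the list higher below 0.05, passed without EpiLC replicate 2 (adjusted p = 0.0036 at a log2 fold change of 0.63) and with a replicate block (adjusted p = 0.044, up to 0.18 over its 14 alternatives). Without ESC replicate 3 the count of 5 that fell was 3. Of 9 genes for receptor cleavage, 6 fell and 1 rose (77.8% called, median -0.41). Of 6 gamma-secretase genes 4 fell and none rose (66.7% called). Psenen fell to 49.3 ± 0.510 TPM in EpiLCs, against 91.3 ± 3.60 TPM in ESCs (SD, n = 3 each). Aph1c, Ncstn and Aph1a, which encode other subunits, had log2 fold changes of -1.42, -0.53 and -0.27. The fall of Aph1c was at a low level, with means of 0.814 TPM in EpiLCs and 3.90 TPM in ESCs. Psen2 and Aph1b did not pass the test, with log2 fold changes of 0.07 and -0.17. The ADAM protease genes moved apart, Adam17 rising by 0.57 and Adam10 falling by 0.41 on the log2 scale.

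In the nucleus, the DNA-binding factor Rbpj was abundant in both states and rose slightly, to 101 ± 3.87 TPM in EpiLCs, against 83.8 ± 2.86 TPM in ESCs (SD, n = 3 each; limma log2 fold change 0.26 ± 0.05 SE, adjusted p = 0.0026). Of 8 tested activator genes 4 rose and 1 fell, or 2 fell without EpiLC replicate 1. That was 62.5% called, against 66.9% of all tested genes (median 0.21). The tested Mastermind genes moved in opposite directions, at log2 fold changes of 0.89 for Maml1 and -1.32 for Maml2. Maml1 was at 11.3 ± 0.0457 TPM in EpiLCs and 5.65 ± 0.379 TPM in ESCs (SD, n = 3 each). Maml2 was at 1.02 ± 0.179 TPM in EpiLCs and 4.01 ± 0.148 TPM in ESCs (SD, n = 3 each). Maml3, untested at means of 0.470 TPM in EpiLCs and 0.0875 TPM in ESCs, was higher in every EpiLC library than in any ESC library. Of 16 tested genes listed as repressors, with the short Groucho family member Tle5 among them, 7 rose and 5 fell (75.0% called, median 0.02). Within the Groucho family, whose long members are corepressors that HES proteins recruit, Tle4 and Tle1 rose by 1.31 and 0.51 on the log2 scale. Tle3 had a log2 fold change of -1.24, and Tle5, a short family member, fell to 58.7 ± 10.7 TPM in EpiLCs, against 284 ± 28.9 TPM in ESCs (SD, n = 3 each; log2 fold change -2.27). The corepressor genes Ctbp2 and Ctbp1 rose by 0.94 and 0.71, and Spen, which represses through RBPJ, fell by 0.53 on the log2 scale. The count of 5 repressor genes that fell was 3 with no filter, with no variance trend and without EpiLC replicate 1, EpiLC replicate 3, ESC replicate 2 or ESC replicate 3.

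Of 6 tested genes for ligand endocytosis 2 rose and 2 fell (66.7% called, against 66.9% of all tested genes, median -0.21). The dynamin gene Dnm2 fell by 0.67 and the epsin gene Epn1 rose by 0.37 on the log2 scale. The ubiquitin ligase gene Mib1 rose by 0.19 on the log2 scale, a call that was lost with median-of-ratios scaling and without any 1 library other than EpiLC replicate 1 (adjusted p = 0.060 to 0.10 in these, and from 0.030 over all alternatives). Neurl1a, whose product is another such ligase, fell by 0.34, a call lost with no filter and without any 1 library other than ESC replicate 2 (adjusted p = 0.057 to 0.16, and from 0.015 over all alternatives). Of 16 genes for receptor turnover 8 rose and 3 fell (68.8% called, median 0.18). Deltex genes encode ubiquitin ligases of a family known for acting on Notch, and among them Dtx4 and Dtx3 changed most in this group. Dtx4 rose to 9.84, 10.9 and 9.93 TPM in EpiLCs, against 1.12, 1.18 and 1.10 TPM in ESCs (limma log2 fold change 2.40 ± 0.10 SE, adjusted p = 9.4e-07). Dtx3 and Dtx3l rose by 1.15 and 0.65 on the log2 scale. Dtx1 and Dtx2 had log2 fold changes of 0.14 and 0.15 without passing the test. Lnx1, a ligase gene named for binding Numb, had a log2 fold change of -0.92, and the Notch antagonist Numb had 20.1 to 26.1 TPM in EpiLCs and 22.0 to 24.9 TPM in ESCs without passing the test. Over these lists together, 50 of 73 tested genes were called (68.5%), 26 higher and 24 lower, again near the share of all genes.

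**Figure D3:**
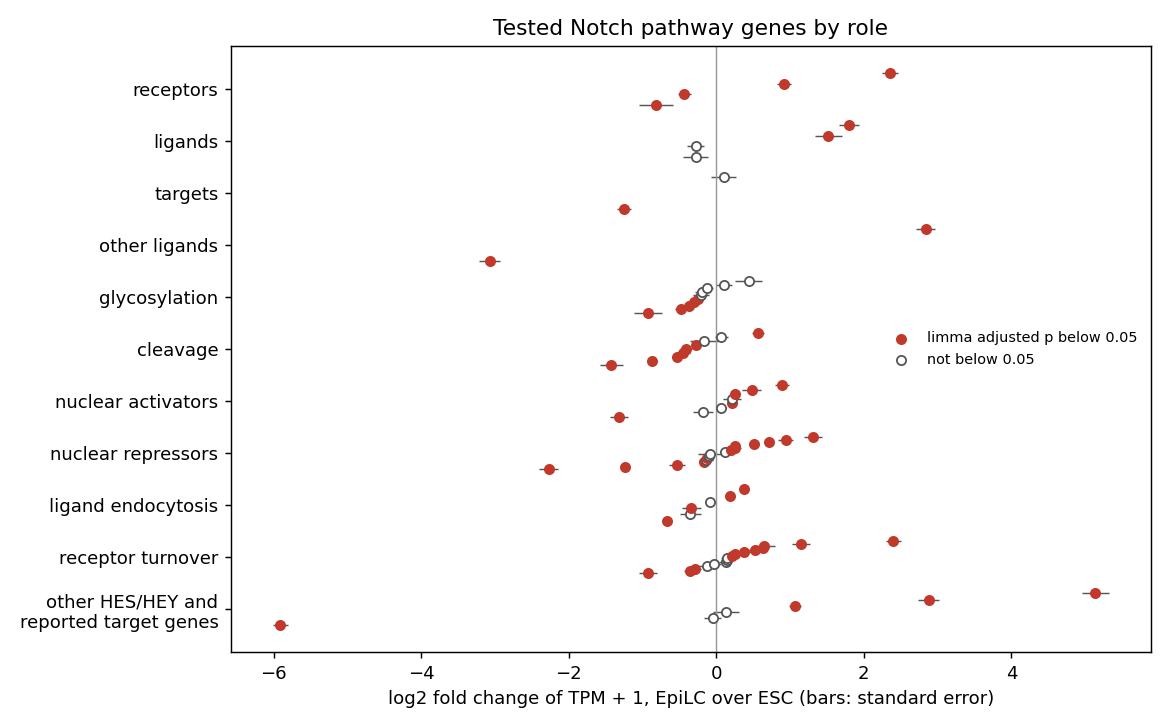
Log2 fold change (EpiLC over ESC, TPM + 1) of each tested Notch pathway gene by role, with bars for the standard error and filled points for limma adjusted p below 0.05. Receptors split between Notch3 at 2.36 and Notch4 at -0.82. Ligands range from Jag2 at 1.80 to Dll1 and Jag1 at -0.28, both of which were not called. Glycosylation and cleavage genes lie mostly left of 0.

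Some markers of other cell types also differed between the groups, as did 66.9% of all tested genes. The 3 tested neural markers rose, Sox1 by 2.03, Pax6 by 1.61 and Nes by 0.41 on the log2 scale, while Neurog2 was at 0.047 TPM or less. The summed level of these 4 neural markers was 23.3 to 34.3 TPM in EpiLCs and 11.6 to 14.9 TPM in ESCs. Of 5 primitive endoderm markers only Gata4 passed the filter, and it fell by 1.22 on the log2 scale, with a summed level of 0.949 to 2.12 TPM in EpiLCs and 5.02 to 5.88 TPM in ESCs. Of the other primitive endoderm markers, Gata6, Sox17 and Pdgfra were lower and Sox7 was higher in every EpiLC library than in any ESC library, untested and at 1.16 TPM or less. Of 5 mesoderm markers only Eomes passed the filter, and it fell by 1.04 on the log2 scale, with a sum, mostly Eomes, of 3.54 to 4.25 TPM in EpiLCs and 6.56 to 8.14 TPM in ESCs. Of the untested mesoderm markers, T was at 0.356 TPM in EpiLCs and 0.932 TPM in ESCs and Mixl1 at 0.782 TPM in EpiLCs and 0.178 TPM in ESCs, both without overlap, and Mesp1 and Tbx6 overlapped between groups. Of 5 fibroblast markers Thy1 and Twist1 rose by 1.54 and 0.76 on the log2 scale. The sum, with Thy1 as its largest part, was 13.5 to 16.4 TPM in EpiLCs and 4.88 to 6.82 TPM in ESCs. The collagen genes Col1a1, Col1a2 and Col3a1 were untested and at most 1.21 TPM. Col1a1 was lower and Col1a2 and Col3a1 were higher in every EpiLC library than in any ESC library. Col3a1 was listed at 0 in all ESC libraries. In bulk RNA, fewer cells of a type and less RNA per cell cannot be told apart, and the part of such cells in the Notch gene values was not tested.

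The tested genes whose profiles over the 6 libraries were most like those of the most abundant receptor, ligand and target were found by the root mean square difference of log2(TPM + 1) after each gene's own mean was subtracted, among 12164 other genes. Notch3 was closest to Nsmf (difference 0.040) and Ms4a4d (0.073), which had log2 fold changes of 2.31 and 2.34. Nsmf had means of 7.63 TPM in EpiLCs and 0.719 TPM in ESCs. Ms4a4d had a mean of 4.06 TPM in EpiLCs and was listed at 0 in all ESC libraries. Both lay below Notch3, at means of 43.2 TPM in EpiLCs and 7.58 TPM in ESCs. Their near-equal log2 fold changes of TPM + 1 therefore do not stand for equal ratios of TPM. Dll1, the ligand with the highest mean over the 6 libraries, was closest to Nfil3 (0.061) and Ppcdc (0.091). Hes1 was closest to Zbtb43 (0.025) and Dpp7 (0.033), with log2 fold changes of -1.23 and -1.29.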

How the data were processed

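Per the labels' protocols, the libraries were made from poly(A) RNA with mixed random and oligo(dT) priming and a strand selection step. The authors deposited 1 table of TPM values with 1 column per library, and each of the 6 columns was matched to its sample by the group and replicate number in its name. Per the submitters' processing notes, the tools were Salmon, STAR, Trim Galore and FastQC (no versions given) and the build was mm39 (GRCm39). The annotation and the summing of transcripts to genes are not given in the sources used here. TPM keeps no depth, so no count model or counting interval was used, and since TPM are shares, abundant genes that change shift all others. The meaning of 0uM in the column names is not stated in the labels.

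Genes with a mean of at least 1 TPM (14036 of 78298) were tested as log2(TPM + 1) with limma 3.58.1 in R 4.3.3 (lmFit, eBayes with a variance trend, two-sided, Benjamini-Hochberg, threshold 0.05). The code was tested on simulated data. Across these genes, Pearson's r was 0.988 to 0.991 for libraries of one group and 0.899 to 0.906 for an EpiLC and an ESC library. A few list genes are not reported here and enter no list count or sum. Members, lists and tests were chosen with earlier results of these data known. Named genes were all 10 members and, of each pathway list, up to 4 called genes with the largest change in each direction. Marker genes and some uncalled or untested genes of the lists were named in addition. The latter were Lfng, Mfng, Nrarp, Numb, Psen2, Aph1b, Dtx1, Dtx2, Dll4, Dlk2, Ccn3, Cntn1, Maml3 and the other HES and HEY genes. Adam10 and Aph1a, which fall outside that rule, were named too. These additions were chosen after their values were seen. Each result was also computed without each library, with a replicate block, with no variance trend, after quantile normalization, median-of-ratios scaling or rescaling to exclude mitochondrially encoded genes, with the filter dropped or raised to 5 TPM, and with pseudocounts of 0.5 and 0.1. Promoter windows are from RefSeq. Python 3.11.15, pandas 2.3.3, numpy 2.4.6 and matplotlib 3.10.9 were used for tables and plots.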

Additional observations from a re-analysis of the deposited data

How the results depend on the processing

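Each result was recomputed under up to 15 alternatives. The counts over all tested genes, over the 10 Notch genes and over the other pathway lists together, each higher and lower, moved by no more than 1.5 times. Within single lists small counts moved more: 5 lower repressor genes were 3 with no filter, with no variance trend or without some libraries, 5 lower glycosylation genes were 3 without ESC replicate 3, and the 2 higher and 2 lower ligand endocytosis genes were 1 each in several alternatives. Of 147 values of the 10 genes under alternatives, 139 kept their direction and their side of the threshold, 1 call was lost (Notch4, no filter), 5 were gained (Jag1 in 4 alternatives, Dll1 in 1) and 2 reversed. Both reversals were of Hey1, which passed in no alternative (log2 fold change -0.0076 without EpiLC replicate 3 and -0.04 without ESC replicate 2, adjusted p = 0.97 and 0.86, between -0.04 and 0.21 over all libraries left out), and the endothelial marker Tek, also uncalled, reversed to -0.04 without ESC replicate 2 (up to 0.12 without another library); the cause was not tested. At a filter of 5 TPM Notch4, Dll3 and Hey1 were not tested. Of 39 other pathway genes named by the rule on largest changes 34 kept their call in all alternatives in which they were tested. Among these, Dner, Aph1c, Maml2, Dtx3l and Lnx1 were not tested at a filter of 5 TPM. Poglut3, Hdac2, Mib1, Neurl1a and Sel1l lost it in at least 1.

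Libraries with the same replicate number deviated together only weakly (r = 0.102, 0.142 and 0.065 across genes for numbers 1, 2 and 3), although each correlated best with its own number, so the numbers were not taken as pairs. With the replicate block 5135 genes were higher and 4477 lower, against 5062 and 4335 without it, and no Notch gene's call changed. Unknown depth limits the weakest genes, Notch4, Dll3 and Hey1, most.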
